A study of Rattus norvegicus with 2 samples.

Results

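The Nr4a family of orphan nuclear receptors was followed through nuclei of the rat orbitofrontal cortex, where expected outcomes of choices are encoded. Its 3 genes, Nr4a1 (Nur77), Nr4a2 (Nurr1) and Nr4a3 (NOR-1), were taken by symbol, and each had 1 row among the 25399 genes of both libraries. They are ENSRNOG00000007607 on rat chromosome 7, ENSRNOG00000005600 on chromosome 3 and ENSRNOG00000005964 on chromosome 5, in that order. The METH library came from rats given methamphetamine (METH), a psychostimulant that releases dopamine, at 1 mg/kg for 7 days, and the saline library from rats given saline on the same days. All animals were male Sprague-Dawley rats of 8 weeks, deeply anaesthetized with pentobarbital at 60 mg/kg before the tissue was taken. Each group drew on 4 rats and yielded 1 library; the sources used here do not say how the rats were pooled. With 1 library a group there is no replicate check, every difference below is one between these 2 libraries, and all intervals are 95% intervals that cover counting error only.

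Nr4a proteins are transcription factors without a known physiological ligand, so the amount of protein made sets much of their activity. In neurons, calcium and cyclic AMP signals switch on their transcription within minutes through CREB and its CRTC coactivators and through SRF and MEF2 factors. The proteins bind DNA alone or as pairs, and Nr4a1 and Nr4a2 also with the retinoid X receptors Rxra, Rxrb and Rxrg. Nr4a2 is also needed for the dopamine phenotype of midbrain neurons and is known in rodent cortex from deep-layer and claustral neurons that express it steadily. The family therefore offers both kinds of expression, one tied to recent activity and one tied to cell type.

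The window just before the transcription start of Nr4a1 is shown because Nr4a1 went closely with activity in the results below and cyclic AMP response elements are known to act on it. The sequence is RefSeq's for GRCr8, chr7:134259888-134260137 on the plus strand, read 5′ to 3′. The capitals mark the half-site of the cyclic AMP response element, TGACG, which here reads CGTCA at each place because it lies on the opposite strand.

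Nr4a1, 250 bases before the start: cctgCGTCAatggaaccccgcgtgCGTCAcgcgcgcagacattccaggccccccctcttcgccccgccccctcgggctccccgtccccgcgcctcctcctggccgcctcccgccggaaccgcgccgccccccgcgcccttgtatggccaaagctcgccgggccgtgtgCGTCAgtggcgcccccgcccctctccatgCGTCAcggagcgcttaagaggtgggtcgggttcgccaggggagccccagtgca

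This window held 4 half-sites, starting at bases 5, 25, 169 and 198. Both strands of the same 250 bases were searched in 33469 RefSeq windows, of which 18.2% held at least 1 half-site and 0.173% (58 windows) held 4 or more. The full element TGACGTCA, which contains the half-site on both strands, was in 1.59% of windows, the CArG box bound by SRF in 1.5%, and the Nr4a monomer site AAAGGTCA in 1.24%; none of the 3 was in the Nr4a1 window. Among the windows of 13 rapid immediate early genes, 8 windows held the half-site, 4 the full element, 2 a CArG box and 0 the Nr4a monomer site. The window listed for Nr4a2 held 1 half-site and none of the other 3 motifs. Nr4a3 had no entry. A match describes the letters and not a site in use.

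After filters and doublet removal, 5167 METH nuclei and 6508 saline nuclei remained of 5543 and 6969 barcodes, with medians of 6401 and 4992 UMIs over all barcodes of each library and 9 barcodes shared between them. Nuclei were clustered with the Nr4a genes, the rapid immediate early genes and the later activity genes left out, so that the levels below played no part in the grouping. Excitatory neurons, the glutamatergic projection cells, were 2149 METH and 3491 saline nuclei, and inhibitory neurons were 1290 and 1220. Each name stands for a likeness to that type, from fixed markers. The excitatory subclasses follow layer and target: intratelencephalic (IT) cells of layers 2/3, 4/5 and 6, extratelencephalic (ET) cells of layer 5, near-projecting (NP) cells of layers 5 and 6 and corticothalamic (CT) cells of layer 6. The L5/6 NP nuclei (237 METH and 212 saline) carried Vwc2l at 1690 and 1852 CPM (UMIs per 1000000 UMIs of the class in that library), Lypd1 at 44.4 and 88.6 CPM and Tshz2 at 10.3 and 23.2 CPM, whereas Slc17a8, another marker, was at 0 in both libraries and Trhr at 0 and 2.11 CPM. No cluster led with markers of layer 6b or of claustrum-type neurons, which are not described here. The kept METH and saline nuclei held 3482 and 4269 UMIs of Nr4a1, 1666 and 1677 of Nr4a3 and only 175 and 139 of Nr4a2.

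Nr4a1, itself an immediate early gene of neurons, was spread over nearly all excitatory layers and was low in L5/6 NP neurons. In the METH library its level was 146.9 CPM in L4/5 IT, 142.1 in L5 ET, 128.1 in L6 CT, 94.5 in L6 IT, 81.0 in L2/3 IT and 34.1 in L5/6 NP neurons. In the saline library it was 176.3 CPM in L4/5 IT, 145.2 in L5 ET, 176.6 in L6 CT, 133.0 in L6 IT, 99.9 in L2/3 IT and 35.9 in L5/6 NP neurons. The 3 highest subclasses overlapped in their intervals in METH. In saline L6 CT and L4/5 IT did not differ beyond their intervals, nor did L5 ET and L6 IT, while L5 ET lay below L4/5 IT. L5/6 NP neurons stood at 0.296 (0.221 to 0.389) of the level of the other excitatory neurons in METH and at 0.251 (0.174 to 0.351) in saline.

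Within L2/3 IT neurons the Nr4a1 level went with the cluster. The cluster led by Ntf3 held 24.1 CPM in METH and 21.9 in saline, the one led by Enpp2 held 64.8 and 76.4, and the one led by Cdkn1a held 194.0 and 196.9. The Cdkn1a cluster (128 METH and 221 saline nuclei) also led with Inhba, Nptx2 and Penk, and its summed rapid immediate early genes stood at 541.3 and 572.1 CPM. The rapid immediate early genes, the later activity genes and the Nr4a genes were left out when it was formed. Cdkn1a and Penk were not among the genes left out, and whether recent activity shaped the cluster was not tested.

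Nr4a3, whose DNA-binding domain closely resembles that of its relatives, had a different layer order. Among whole subclasses its highest levels were in L5/6 NP and L6 IT neurons, at 85.5 and 78.5 CPM in METH and at 115.0 and 119.6 CPM in saline. In METH it was 49.8 CPM in L2/3 IT, 49.5 in L4/5 IT, 36.7 in L5 ET and 31.7 in L6 CT neurons. In saline it was 58.7 CPM in L2/3 IT, 40.9 in L4/5 IT, 45.6 in L5 ET and 47.6 in L6 CT neurons. L5/6 NP and L6 IT did not differ beyond their intervals in either library, and neither did L5 ET and L6 CT. Set against the other excitatory neurons, Nr4a3 was 1.75-fold (1.45 to 2.10) in L5/6 NP neurons in METH and 2.06-fold (1.68 to 2.50) in saline, and 1.59-fold (1.30 to 1.93) and 2.33-fold (2.05 to 2.65) in L6 IT neurons. Among whole excitatory subclasses L5/6 NP neurons thus held the lowest Nr4a1 level and one of the 2 highest Nr4a3 levels in both libraries. Within L2/3 IT neurons Nr4a3 too went with the cluster. The Cdkn1a cluster held 166.7 CPM in METH and 147.9 in saline, the Enpp2 cluster 18.9 and 20.4, and the Ntf3 cluster 10.7 and 12.8. The Cdkn1a cluster stood above L5/6 NP neurons in METH, and in saline their intervals overlapped (131.3 to 166.1 and 94.4 to 138.7 CPM). Its 5 highest nuclei held 59.7% of its Nr4a3 UMIs in METH and 27.5% in saline, and its level without them was not taken.

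**Figure D1:**
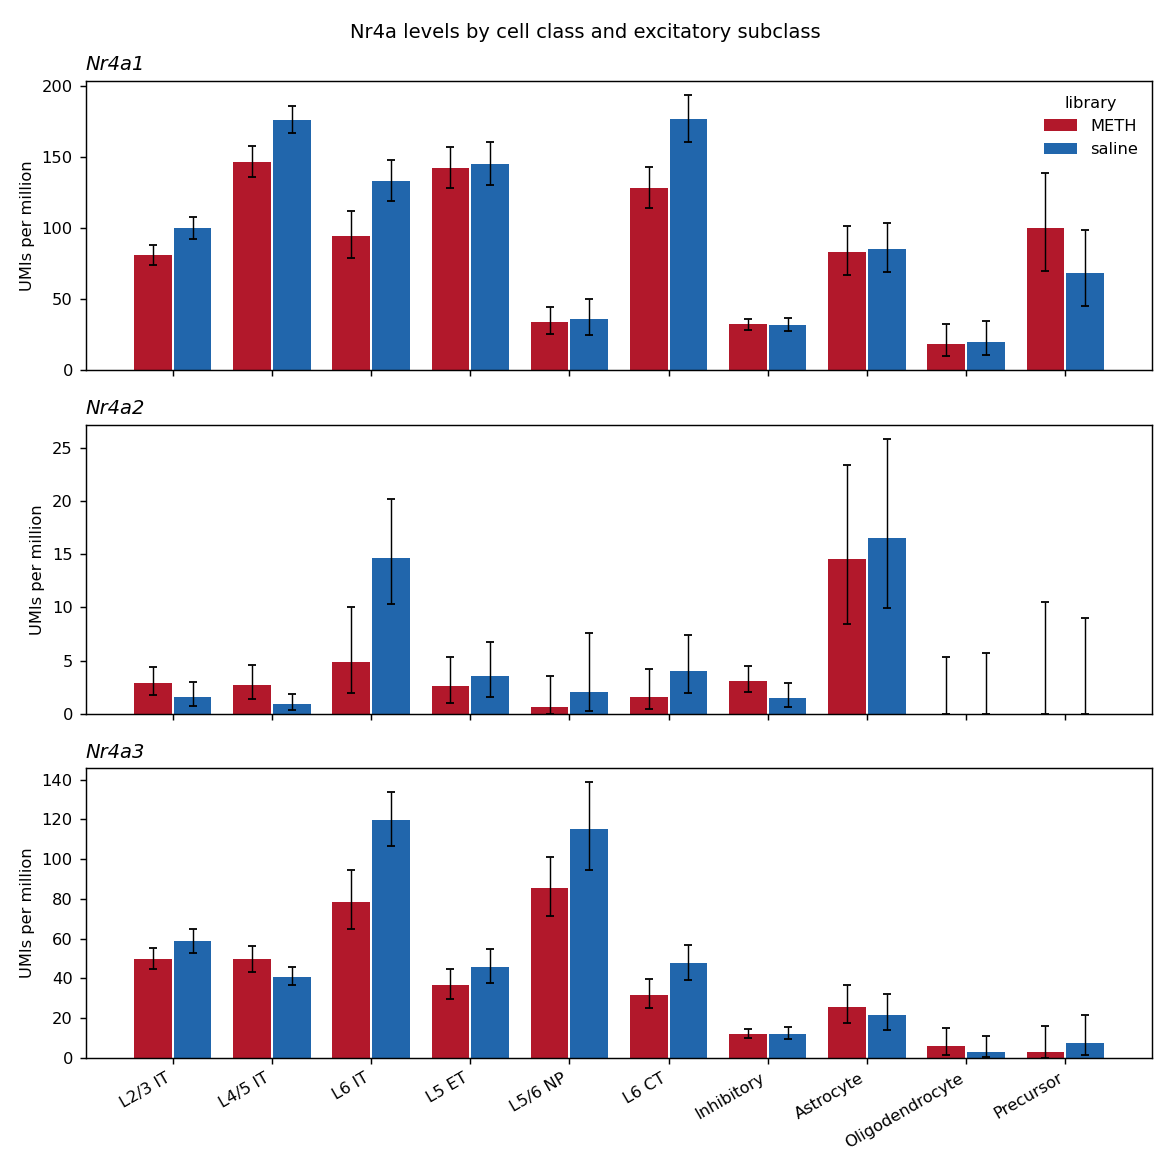
Levels of Nr4a1, Nr4a2 and Nr4a3 in CPM by excitatory subclass and by other class, with METH bars left of saline bars and exact Poisson 95% intervals. In L5/6 NP nuclei Nr4a1 is at 34.1 CPM in METH and 35.9 in saline, while Nr4a3 is at 85.5 and 115.0.

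Nr4a2 was too scarce for a layer order. In excitatory neurons it had 62 UMIs in METH (2.75 CPM) and 96 in saline (3.78 CPM), below the minimum of 20 CPM used for a measured gene. L6 IT neurons held 4.87 CPM in METH (7 UMIs, 1.96 to 10.0 CPM) and 14.6 CPM in saline (37 UMIs, 10.3 to 20.1 CPM). This was 1.87-fold the level of the other excitatory neurons in METH (0.717 to 4.11), an interval that includes 1, and 5.66-fold in saline (3.65 to 8.68). The saline value, log2 2.50, was 1.03 at neuron resolution 2, 1.77 without the 5 highest nuclei and 3.20 when thinned to 1000 UMIs; the METH value, log2 0.90, was -0.05 with at least 1000 genes per nucleus. Astrocytes held 14.6 CPM in METH (17 UMIs) and 16.6 CPM in saline (19 UMIs). Oligodendrocytes and their precursors held 0 Nr4a2 UMIs in both libraries, which allows up to 8.58 CPM in METH precursors and 7.35 CPM in saline precursors by a floor of 3 counts (the 2-sided 95% bounds are 10.5 and 9.04 CPM).

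Outside excitatory neurons Nr4a1 was found in astrocytes, oligodendrocyte precursors and endothelial nuclei at higher levels than in inhibitory neurons as a whole. Astrocytes held 83.2 CPM in METH and 85.4 in saline, precursors 100.1 and 68.6, endothelial nuclei 82.9 (17 UMIs) and 112.1 (27 UMIs), inhibitory neurons 32.3 and 31.9, and oligodendrocytes 18.9 and 20.1. Among inhibitory neurons, Vip cells held 65.9 CPM in METH and 60.5 in saline, and Pvalb cells 12.3 and 9.91. An inhibitory cluster led by Best3 (67 METH and 55 saline nuclei), without a subclass name, held 133.9 and 166.9 CPM (40 and 34 UMIs). Another led by Col5a2 (25 and 17 nuclei), also without a subclass name, held 140.1 and 89.9 CPM (22 and 9 UMIs). Free RNA puts UMIs of neuronal genes into all droplets, so the glutamate transporter gene Slc17a7, which these cells should lack, was read beside them. Slc17a7 in astrocytes stood at 11.0% of its excitatory level in METH and 18.6% in saline, and Nr4a1 at 76.0% and 61.5%. In precursors Slc17a7 was at 13.4% and 21.2% and Nr4a1 at 91.5% and 49.4%, and in endothelial nuclei Slc17a7 was at 36.6% and 45.5% and Nr4a1 at 75.8% and 80.7%. In oligodendrocytes Slc17a7 was at 12.7% and 24.1% and Nr4a1 at 17.3% and 14.5%. How much of the oligodendrocyte Nr4a1 level is free RNA was not tested. In inhibitory neurons Slc17a7 was at 6.66% and 11.0% and Nr4a1 at 29.5% and 23.0%. In mural cells Slc17a7 was at 47.5% and 78.0% and Nr4a1 at 46.3% and 73.9%, and the part of free RNA was not tested there either. Median depths were 2420 UMIs in METH astrocytes and 2011 in saline astrocytes, against 9407 and 6398 in excitatory neurons.

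The next comparison asked how far each member went with recent activity in the same nucleus. Excitatory nuclei of under 3000 UMIs, 36 in METH and 187 in saline, were left out. They included 9 of the 237 METH and 56 of the 212 saline L5/6 NP nuclei. Each excitatory nucleus of at least 3000 UMIs was thinned to 3000, and its UMIs of 15 rapid immediate early genes such as Fos, Arc and Egr1 were counted. Of the METH nuclei 59.7% had 0 such UMIs and 18.6% had 2 or more, and of the saline nuclei 53.4% and 23.8%. Nr4a1 stood at 53.3 CPM in METH nuclei with 0 such UMIs, 101.3 with 1, 234.1 with 2 or 3 and 459.8 with 4 or more. In saline these levels were 61.2, 116.2, 248.6 and 491.6 CPM. Nr4a1 therefore climbed at every step in both libraries. Nr4a3 stood at 26.0, 46.0, 96.4 and 233.1 CPM in the same METH steps and at 31.4, 46.3, 98.8 and 182.3 CPM in the saline steps.

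Nuclei with 2 or more of these UMIs were then set against nuclei with 0, standardised over subclasses. Nr4a1 was 5.26-fold higher in METH (log2 2.39, 2.26 to 2.53) and 5.37-fold higher in saline (log2 2.42, 2.30 to 2.55). Nr4a3 was 6.41-fold higher in METH (log2 2.68, 2.47 to 2.89) and 4.62-fold higher in saline (log2 2.21, 2.03 to 2.39). The same ratio was taken for all genes outside the list: 87 of 10569 genes (0.823%) in METH and 82 of 10858 (0.755%) in saline passed 1.5-fold in either direction with the nearer interval bound. By that bound Nr4a3 ranked 2 and Nr4a1 ranked 3 in METH, and Nr4a1 ranked 2 and Nr4a3 ranked 3 in saline. Scg2, which encodes a neuropeptide precursor of the later activity genes, ranked 1 in METH and 5 in saline. For Nr4a2 the counts were 43 UMIs where 1.35 were expected in METH and 55 where 9.29 were expected in saline. Without the 5 highest nuclei per library the Nr4a3 ratio in METH was log2 2.15. Median depth was 9117 UMIs in METH nuclei with 2 or more and 9776 in those with 0, and 6406 and 6827 in saline.

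Among whole subclasses the ratio was largest in L2/3 IT neurons. In L2/3 IT neurons Nr4a3 was 17.7-fold higher in nuclei with 2 or more immediate early UMIs than in nuclei with 0 in METH (log2 4.14, 3.74 to 4.56) and 10.2-fold higher in saline (log2 3.35, 2.98 to 3.74). These L2/3 IT values pool clusters of unlike level. Within the Cdkn1a cluster alone Nr4a3 was at 387.2 CPM in METH nuclei with 2 or more and 37.8 CPM in those with 0, and at 286.0 and 54.3 CPM in saline. Nr4a1 there was at 379.7 and 76.9 CPM in METH and at 368.5 and 88.0 CPM in saline. For both Nr4a3 and Nr4a1 the ratio within this cluster was smaller than over all L2/3 IT neurons, in each library. In L4/5 IT neurons Nr4a3 was 8.41-fold higher in METH and 3.01-fold in saline, and in L6 IT neurons 3.59-fold and 3.74-fold. In L5 ET neurons it was 1.95-fold in METH (log2 0.96, 0.27 to 1.65) and 4.54-fold in saline (log2 2.18, 1.5 to 2.88), and in L6 CT neurons 2.16-fold (log2 1.11, 0.28 to 1.96) and 3.48-fold (log2 1.80, 1.12 to 2.53). In L5/6 NP neurons it was 1.81-fold in METH (log2 0.85, -0.15 to 1.73) and 1.13-fold in saline (log2 0.18, -1.32 to 1.38). Both NP intervals include 0 and lie below those of whole L2/3 IT neurons. In METH the NP interval overlaps those of L5 ET, L6 CT and L6 IT neurons (L6 IT log2 1.18 to 2.50). In saline it overlaps those of L6 CT and L4/5 IT neurons (L4/5 IT log2 1.21 to 1.98). The NP values rest on 12 METH and 6 saline UMIs in nuclei with 2 or more, since 4.82% of METH NP nuclei and 5.77% of saline NP nuclei reached that step. With 1 immediate early UMI, NP nuclei held 100.4 CPM of Nr4a3 in METH (68.2 to 142.5) and 223.6 CPM in saline (152.9 to 315.6). With 0 they held 77.8 CPM (62.5 to 95.8) and 99.9 CPM (76.6 to 128.0). The saline intervals of these steps do not overlap, while the saline level with 2 or more was 113.2 CPM (41.6 to 246.5). Nr4a1 in L2/3 IT neurons was 9.31-fold higher in METH and 9.07-fold higher in saline. In L5/6 NP neurons it was 5.18-fold higher in METH (log2 2.37, 1.28 to 3.38) and 1.60-fold in saline (log2 0.68, -1.71 to 2.41), from 12 and 3 UMIs.

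**Figure D2:**
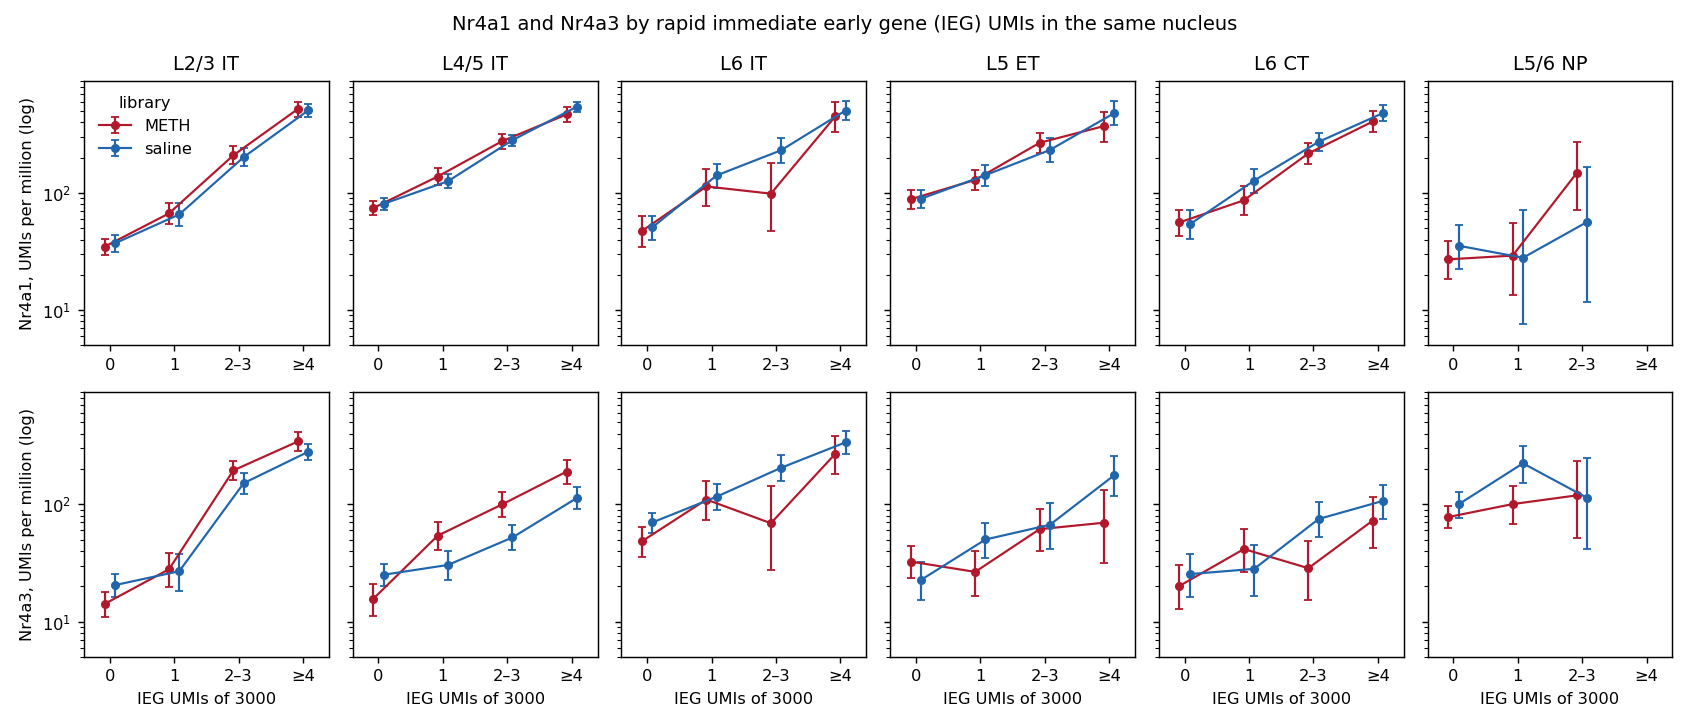
Nr4a1 (upper row) and Nr4a3 (lower row) in CPM on a log axis, by the number of rapid immediate early gene (IEG) UMIs among 3000 in the nucleus, for 6 excitatory subclasses, with METH in red, saline in blue and 95% Poisson intervals. Groups of under 9 nuclei are left out. In L2/3 IT neurons Nr4a3 stands at 14.1, 27.9, 194.7 and 343.5 CPM in METH and at 20.4, 26.9, 151.5 and 280.4 CPM in saline, while L5/6 NP neurons start at 77.8 CPM (METH) and 99.9 CPM (saline).

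The layer preference of Nr4a3 was larger among nuclei with no immediate early UMI. In these nuclei L5/6 NP neurons held 77.8 CPM of Nr4a3 in METH (89 UMIs, 170 nuclei) against 21.3 CPM in the other excitatory neurons, which is 3.66-fold (2.84 to 4.67). In saline they held 99.9 CPM (62 UMIs, 117 nuclei) against 28.2 CPM, which is 3.54-fold (2.66 to 4.65). L6 IT neurons without immediate early UMIs also stood above the rest, at 1.99-fold (1.43 to 2.72) in METH and 2.61-fold (2.07 to 3.27) in saline. L2/3 IT neurons stood at 0.440 (0.331 to 0.577) in METH and 0.574 (0.442 to 0.738) in saline. For Nr4a1 in the same nuclei the order was another one: L5 ET neurons were at 1.78-fold (1.45 to 2.18) in METH and 1.53-fold (1.26 to 1.86) in saline, L4/5 IT neurons at 1.54-fold and 1.49-fold, and L5/6 NP neurons at 0.487 (0.328 to 0.698) and 0.568 (0.354 to 0.865). A count of 0 among 3000 UMIs does not show that a nucleus lacked these transcripts.

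The share of UMIs in nuclei with 0 immediate early UMIs was also taken by subclass. In L5/6 NP neurons 67.4% of the METH Nr4a3 UMIs and 62.0% of the saline ones came from nuclei with 0 immediate early UMIs, which held 74.4% and 76.0% of all UMIs there. In L2/3 IT neurons 19.0% of the METH Nr4a3 UMIs and 21.5% of the saline ones did, against 66.5% and 61.1% of all UMIs. In L5 ET neurons the Nr4a3 share was 43.4% in METH, near the 49.2% of all UMIs, and 27.2% in saline, against 54.0%. For Nr4a1 the shares were 28.5% in METH and 22.6% in saline in L2/3 IT neurons. Those of L5/6 NP neurons were 59.6% (31 of 52 UMIs) in METH and 75.9% (22 of 29 UMIs) in saline, the saline one close to its share of all UMIs.

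**Figure D3:**
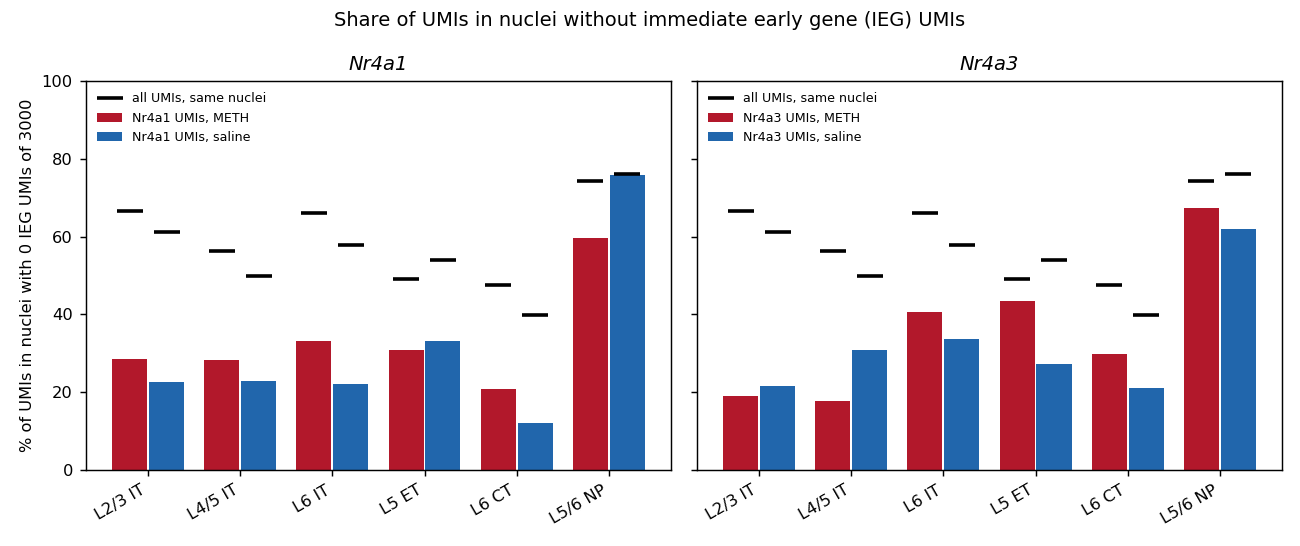
Share of Nr4a1 UMIs (left panel) and Nr4a3 UMIs (right panel) found in nuclei with 0 rapid immediate early gene (IEG) UMIs of 3000, by excitatory subclass, with METH bars left of saline bars; black marks give the same share for all UMIs of these nuclei. For Nr4a3 the METH bars of L5/6 NP neurons (67.4%) and L5 ET neurons (43.4%) come near their marks (74.4% and 49.2%). The saline bar of L5/6 NP neurons (62.0%) lies below its mark (76.0%). The bars of L2/3 IT neurons (19.0% and 21.5%) stay far below theirs.

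The spread of Nr4a3 between nuclei also differed between subclasses. After thinning to 3000 UMIs, the variance over the mean (Fano factor) of Nr4a3 in L2/3 IT neurons was 3.80 in METH and 2.07 in saline, where genes of a like mean had medians of 1.03 and 1.04. In L5/6 NP neurons it was 1.23 in METH and 1.45 in saline, beside 1.04 and 1.06, above 91.6% and 97.6% of like genes. In L6 CT neurons it was 1.10 in METH, lower than in L5/6 NP neurons, and 1.84 in saline. In the other subclasses it lay between 1.57 and 2.67 in METH and between 1.63 and 1.97 in saline. Single nuclei carried many UMIs: 1 METH nucleus of L2/3 IT type with 24124 UMIs held 59 of Nr4a3, 18 of Nr4a1, 11 of Nr4a2 and 37 of the rapid immediate early genes. The highest saline excitatory nucleus for Nr4a3, of L6 IT type, held 29 of Nr4a3, 9 of Nr4a1 and 24 immediate early UMIs.

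Members were also counted in the same nuclei. Among thinned excitatory nuclei with a Nr4a1 UMI, 15.3% in METH and 20.4% in saline had a Nr4a3 UMI, and among nuclei without one 7.39% and 8.81% had one. In L2/3 IT neurons these shares were 16.7% and 26.7% with Nr4a1, and 4.48% and 6.06% without. Among L5/6 NP neurons they were 13.3% (2 of 15 nuclei) in METH and 23.5% (4 of 17) in saline with Nr4a1, and 18.8% and 28.8% without. Nuclei with Nr4a2 were few, 13 in METH and 33 in saline, and 8 and 17 of them also had Nr4a1.

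Nr4a1 was found in the same nuclei as other immediate early genes. Observed UMIs in nuclei with a Nr4a1 UMI were set against those expected from nuclei of the same subclass without one, and 29 genes of 7974 (0.364% called) were past 1.5-fold in METH and 46 of 9658 (0.476%) in saline, of which 42 were higher. The 8 highest in both libraries were Fosb, Egr4, Fos, Nr4a3, Arc, Scg2, Junb and Btg2. Fosb, a part of the AP-1 factor, had 78 UMIs where 10.7 were expected in METH (log2 2.87, 2.25 to 3.50) and 185 where 19.4 were expected in saline (log2 3.25, 2.79 to 3.71). Egr4, a zinc finger factor, stood at log2 2.39 in METH and 2.12 in saline, and Arc, which regulates synaptic receptors, at 1.62 and 1.53. Of the 15 rapid immediate early genes in the table, 15 stood above 0 in METH and 15 in saline, with medians of log2 1.62 and 1.98, beside medians over all genes of -0.02 and -0.02. The interval lay above 0 for 14 of them in METH and 15 in saline. Expected UMIs were set by subclass, so for every member L2/3 IT neurons pool the Ntf3, Enpp2 and Cdkn1a clusters of unlike level. In METH, Bdnf stood at 28.5, 19.6 and 153.4 CPM in these clusters. How much of the co-detection comes from the cluster was not tested.

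Nr4a3 was counted with these genes and with some later activity genes. The 8 highest were Fosb, Bdnf, Fosl2, Tiparp, Egr4, Btg2, Nr4a1 and Ptgs2, where 53 of 5289 genes (1% called) passed in METH and 39 of 7592 (0.514%) in saline, all higher. Bdnf, the neurotrophin that supports synaptic plasticity, had 96 UMIs where 16.4 were expected in METH (log2 2.55, 2.18 to 2.93) and 129 where 44.4 were expected in saline (log2 1.54, 1.24 to 1.83). With Nr4a1, Bdnf stood at log2 1.26 (0.89 to 1.63) in METH and 1.14 (0.88 to 1.40) in saline. Nptx2, a synaptic pentraxin, stood with Nr4a3 at log2 2.47 in METH and 1.13 in saline. Homer1, whose short form is induced by activity, stood at 1.53 and 0.91. Of the 10 later activity genes, 9 stood above 0 with Nr4a3 in METH and 10 in saline, and 4 passed in each library: Bdnf, Nptx2, Homer1 and Scg2. The same 4 passed with Nr4a1 in both libraries. Nrn1, Rasgrp1 and Sorcs3 were measured and did not pass with either member, and Rasgrp1 stood with Nr4a3 at -0.22 (-0.67 to 0.23) in METH and 0.08 (-0.19 to 0.36) in saline. Of the 15 rapid immediate early genes, 14 stood above 0 with Nr4a3 in METH, with Egr2 (1 UMI) as the exception, and 15 in saline.

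**Figure D4:**
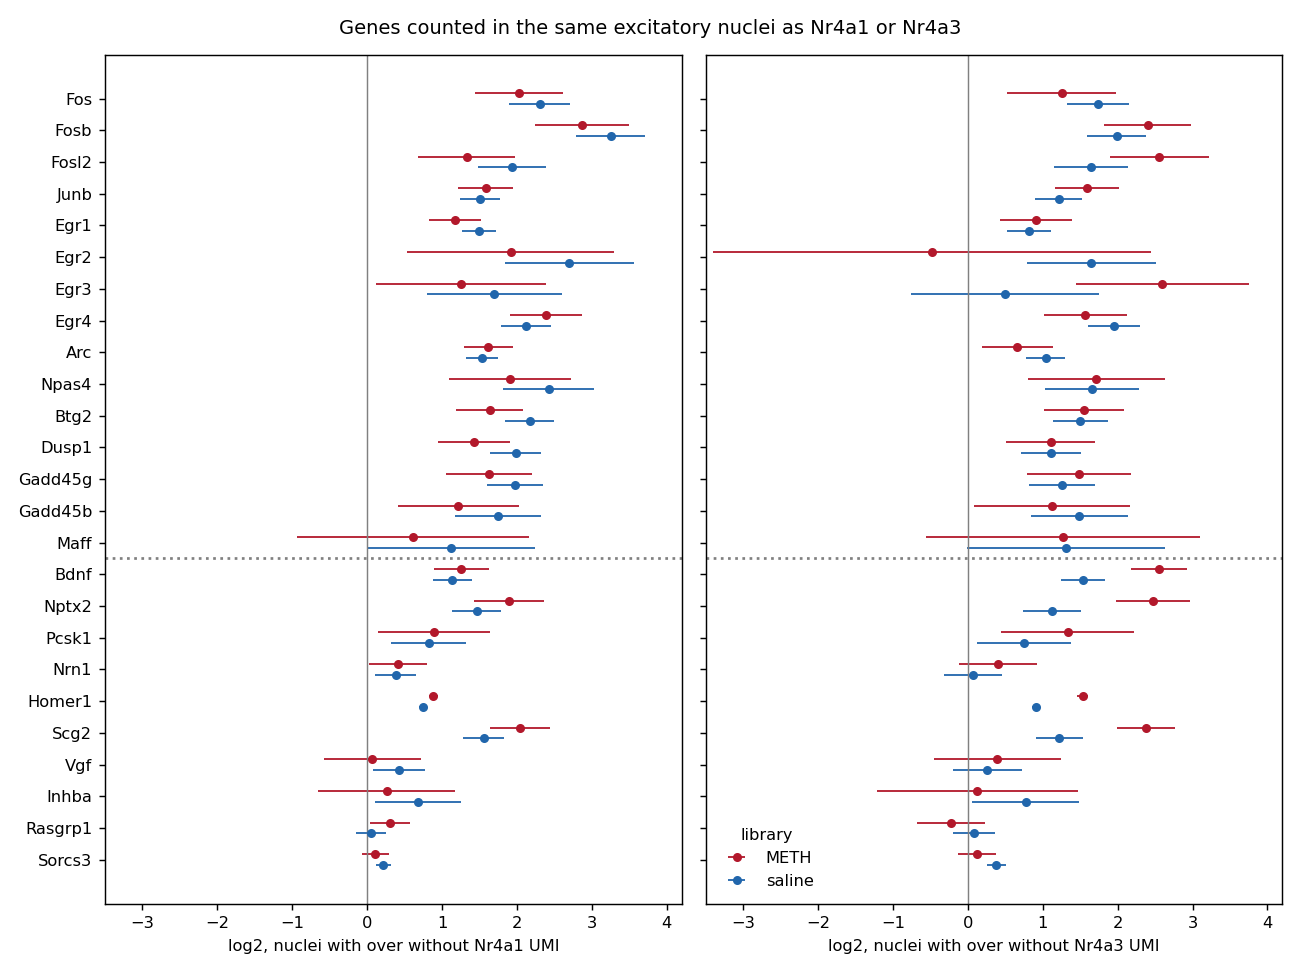
Log2 of observed over expected UMIs in excitatory nuclei with a Nr4a1 UMI (left panel) or a Nr4a3 UMI (right panel), with METH points above saline points and 95% intervals; rapid immediate early genes are above the dotted line and later activity genes below it. Fosb is at 2.87 in METH and 3.25 in saline with Nr4a1, and Bdnf at 2.55 and 1.54 with Nr4a3.

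With Nr4a2, Homer1 had 137 UMIs where 60.7 were expected in METH and 284 where 157.0 were expected in saline, and Pde7b, a cyclic AMP phosphodiesterase, 55 where 19.8 and 87 where 48.9 were expected. The remaining 6 by the same order, Ahi1, Snap25, Epha5, Anks1b, Ntrk2 and Osbp2, had log2 values of 0.30 to 0.71 in METH and 0.20 to 0.54 in saline. Only 291 genes in METH and 1061 in saline could be counted, of which 5 (1.72%) and 7 (0.66%) passed. The order holds only genes with at least 20 UMIs in these few nuclei of both libraries. Pde7b was also a leading gene of the Cdkn1a cluster. That cluster held 19 of the 20 Nr4a2 UMIs of L2/3 IT neurons in METH and 9 of 10 in saline. In saline Nr4a3 (31 UMIs where 5.72 were expected, log2 2.44) and Nr4a1 (42 where 14.1, log2 1.57) passed. In METH they had 11 and 12 UMIs. The 15 rapid immediate early genes, none of them measured with Nr4a2, had medians of log2 1.81 in METH and 1.60 in saline. Of these genes, 10 stood above 0 in METH, from 13 nuclei with Nr4a2, and 15 in saline, from 33.

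None of the measured inducing factors, coactivators or corepressors passed with Nr4a1 or with Nr4a3 in either library. All 11 inducing factors and coactivators were measured with Nr4a1, and 9 in METH and 10 in saline with Nr4a3. Crem, which encodes CREB-related activators and repressors, stood with Nr4a1 at log2 1.04 (0.34 to 1.75) in METH and 0.89 (0.34 to 1.44) in saline. In nuclei with 2 or more immediate early UMIs over nuclei with 0, Crem was at log2 0.84 (0.41 to 1.27) in METH and passed in saline at 1.31 (0.90 to 1.71). Rxrb, a retinoid X receptor and partner of Nr4a1 and Nr4a2, was at 50.8 CPM in METH and 53.9 CPM in saline excitatory neurons. With Nr4a1, Rxrb stood at log2 0.54 (0.20 to 0.88) in METH and -0.29 (-0.57 to -0.01) in saline. Rxra and Rxrg were below the measured level, at 3.28 and 4.75 CPM in METH and 2.99 and 6.07 CPM in saline. Of 6 genes of the dopamine phenotype set by Nr4a2 in midbrain, only the vesicular monoamine transporter gene Slc18a2 was measured in excitatory neurons, at 30.1 CPM in METH and 35.8 CPM in saline; the tyrosine hydroxylase gene Th was at 0.44 and 0.71 CPM and the dopamine transporter gene Slc6a3 at 0.09 and 0.04 CPM.

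Over 16 classes and neuron subclasses, the genes with patterns most like Nr4a1 were Ext1 (Pearson r of log2(CPM + 1) 0.91 in METH and 0.90 in saline), Bmper, Slc8a2, Jak2 and Cdh22. Most like Nr4a3 were Dusp5 (0.79 and 0.77), Hdac10, Tpm3, Mvp and Plekhg5. Nr4a1 and Nr4a3 had an r of 0.50 in METH and 0.44 in saline. The 16 points of a library share its depth and its free RNA, and no test was made. For Nr4a2, below the measured level, the list was Septin9, Papss2, Mfhas1, Parg and Cry2, with r between 0.67 and 0.79.

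Between the libraries, Nr4a1 took a lower share of excitatory UMIs after METH, by less than the 1.5-fold rule. It was at 109.4 CPM in METH (2466 UMIs) and 138.9 CPM in saline (3526 UMIs), a log2 ratio of -0.34 (-0.42 to -0.27). Nr4a3 was at 51.3 CPM in METH (1156 UMIs) and 58.1 CPM in saline (1475 UMIs), a log2 ratio of -0.18 (-0.29 to -0.07). For Nr4a2 the ratio was -0.46 (-0.94 to 0.02). Nr4a1 and Nr4a3 did not pass and Nr4a2 was not measured, beside 24 of 7142 genes (0.336%) that did, and the median over all genes was -0.01. The 9 measured rapid immediate early genes were all below 0, with a median of -0.27 and 0 past the rule.

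The direction depended on the scale. METH excitatory nuclei held more UMIs in all, and per nucleus Nr4a1 was higher in METH, at 1.15 UMIs against 1.01 in saline (log2 0.18, 0.11 to 0.26), as was Nr4a3, at 0.54 against 0.42 (log2 0.35, 0.24 to 0.46). When nuclei were matched on UMIs within subclass, the CPM ratio of Nr4a1 was log2 -0.083, and with subclasses weighted alike -0.26. Depth moves with the group, and its part in the ratio was not tested beyond these values. Within steps of immediate early UMIs the Nr4a1 ratio was -0.20 (-0.35 to -0.05) in nuclei with 0, -0.20 (-0.37 to -0.03) with 1 and -0.14 (-0.24 to -0.04) with 2 or more. For Nr4a3 these ratios were -0.27 (-0.48 to -0.07), -0.01 (-0.27 to 0.26) and 0.13 (-0.03 to 0.29).

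By subclass, Nr4a1 ratios ran from -0.49 (-0.79 to -0.20) in L6 IT neurons (0.13 when nuclei were thinned to 1000 UMIs) and -0.46 (-0.68 to -0.25) in L6 CT to -0.03 (-0.24 to 0.18) in L5 ET neurons. Nr4a3 was lower in METH in L6 IT neurons (-0.61, -0.93 to -0.29; -1.61 at neuron resolution 2, -0.26 with at least 1000 genes per nucleus and -0.10 when thinned to 1000 UMIs), L6 CT neurons (-0.58, -1.02 to -0.16) and L5/6 NP neurons (-0.43, -0.80 to -0.05). In L4/5 IT neurons the Nr4a3 ratio was 0.28 (0.03 to 0.53), and it was -0.19 (-0.48 to 0.11) without the 5 highest nuclei of each library and -0.14 without doublet removal. Per nucleus it was 0.87 (0.62 to 1.12) there, with 0.522 UMIs in METH and 0.286 in saline. In no excitatory subclass where they were measured did Nr4a1 or Nr4a3 pass the rule (Nr4a1 was not measured in L5/6 NP neurons). The share of genes that passed was 0.341% in L2/3 IT, 0.267% in L4/5 IT, 0.244% in L6 IT, 0.314% in L5 ET, 0.139% in L5/6 NP and 0.377% in L6 CT neurons. In inhibitory neurons Nr4a1 stood at 0.02 (-0.25 to 0.29) and in astrocytes at -0.04 (-0.46 to 0.38; 0.05 with TMM factors), with 0.277% and 0.772% of genes past the rule.

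**Figure D5:**
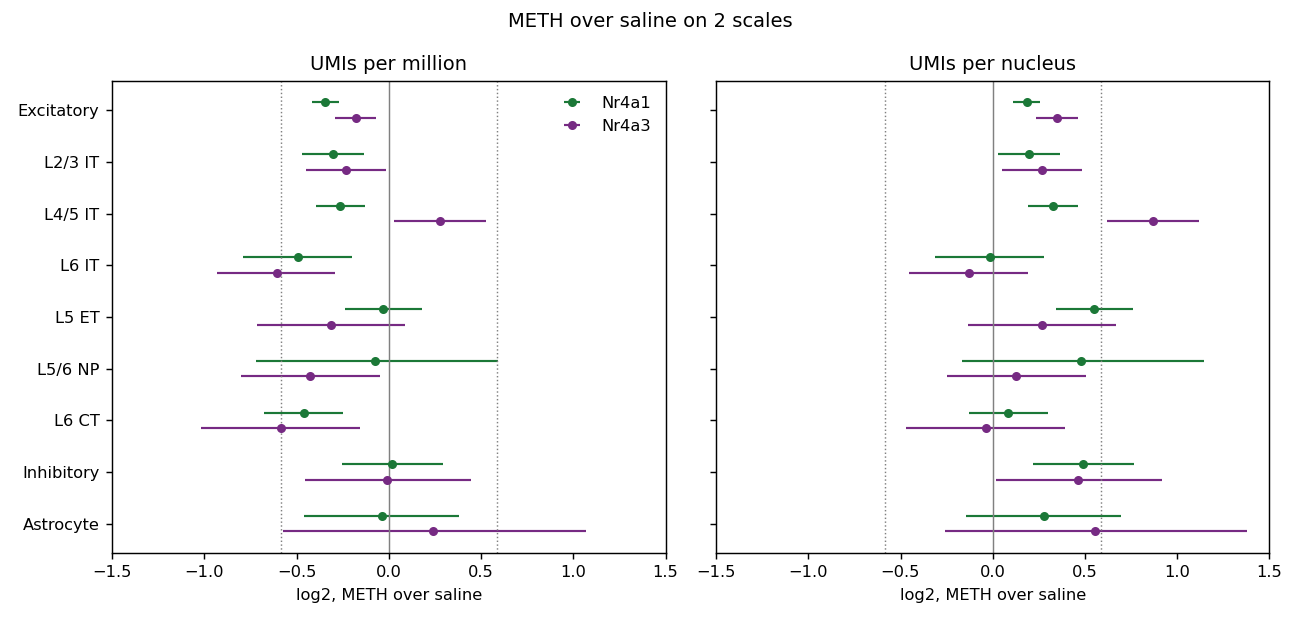
Log2 ratios of METH over saline for Nr4a1 (green) and Nr4a3 (purple) by class and subclass, in CPM (left panel) and per nucleus (right panel), with 95% intervals; dotted lines mark 1.5-fold. In all excitatory neurons Nr4a1 lies at -0.34 in CPM and at 0.18 per nucleus, and Nr4a3 at -0.18 and 0.35.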

How the data were processed

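Per the labels' protocols, nuclei of detergent-lysed, dounced orbitofrontal cortex went through Chromium Next GEM 3' v3.1 chemistry and Illumina sequencing. The authors deposited 1 matrix of raw UMI counts for each library; the submitters' processing notes name Cell Ranger 7.0.0. Those notes also name hg38, a human build, while the gene tables carry rat Ensembl identifiers; no rat build is named in the sources used. The libraries held 44969322 UMIs (METH) and 42221257 (saline).

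Nuclei needed 500 genes or more and no more than 5% mitochondrial UMIs, and Scrublet in scanpy 1.11.5 removed 320 METH (5.83%) and 402 saline doublets (5.82%). Leiden clustering (igraph 0.11.9; 2000 variable genes, 30 components, 15 neighbours, resolution 1) was run on all nuclei and again on neurons. Naming thresholds were set after the clusters were seen; 557 METH and 393 saline nuclei stayed unnamed, among them clusters led by Bin2, by Slfn4 and by Ndst4. UMIs were summed per library and class. CPM has exact Poisson intervals, and ratios have exact conditional binomial or, when standardised over subclasses, delta-method intervals; both cover counting error only, and nuclei are not replicates, so no p-value is given. To be measured, a gene needed 100 UMIs in all and 20 CPM in 1 library; it was past the rule where its ratio and nearer bound exceeded 1.5-fold. Co-detection needed 20 UMIs in nuclei with the member, which favours genes that are high there, so list medians cover all listed genes in the table. The ratios and their intervals were tried on simulated Poisson counts. Such counts lack the wide spread between nuclei of Nr4a1 and Nr4a3, so that trial does not show how the intervals behave for these genes.

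The members, lists and tests were chosen with earlier results of these data known. Genes were named by fixed rule: the 5 most alike and the 8 most co-detected per member. Fixed lists allowed up to 4 genes with the largest ratios; listed genes named outside this rule, cluster markers and motifs were chosen after their values were seen. Alternatives included edgeR 4.0.16 TMM factors and DESeq2 1.42.0 median of ratios, which moved excitatory ratios by under 0.1 on the log2 scale, and oligodendrocyte ratios by 0.17.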

Additional observations from a re-analysis of the deposited data

Results flagged for a closer look

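The METH over saline ratio of a member differed in sign between cell types in several places, with intervals on opposite sides of 0; the differences between the cell types were not tested. Nr4a3 had a log2 ratio of 0.28 in L4/5 IT neurons, against -0.23 in L2/3 IT, -0.61 in L6 IT, -0.43 in L5/6 NP and -0.58 in L6 CT neurons and -1.93 in Lamp5 neurons (8 UMIs in METH and 25 in saline). With the highest nucleus left out on either side the L4/5 IT value was 0.15 (-0.12 to 0.40), and without the 5 highest it was -0.19, while the values in L2/3 IT, L6 IT, L5/6 NP, L6 CT and Lamp5 neurons were then -0.75, -0.75, -0.42, -0.74 and -2.24. In endothelial nuclei the Nr4a3 ratio was 3.23, from 32 UMIs in METH and 4 in saline, and 31 of the 32 came from 1 nucleus of 11103 UMIs; with the top nucleus left out on either side, 1 METH and 2 saline UMIs were left, a ratio of -0.76 (-6.64 to 3.50). Nr4a2 had a log2 ratio of 1.53 in L4/5 IT neurons, from 13 UMIs in METH and 7 in saline, and of -1.59 in L6 IT neurons, from 7 and 37.

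Nr4a2 stood at 25.8 CPM (17.2 to 37.3) in an unnamed cluster led by Ndst4, with 28 UMIs in 15 nuclei. The cluster held 201 METH nuclei and 1 saline nucleus, so no comparison between the libraries was possible.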

How the results depend on the processing

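No paired analysis was possible because both libraries carry replicate number 1 only. The sign of the METH over saline ratio in all excitatory neurons held on the CPM scale for the 3 members under every alternative run, and was the opposite per nucleus. The cause of the shifts below was not tested.

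For that ratio, matching nuclei on UMIs gave -0.083 for Nr4a1 and -0.30 for Nr4a3, subclasses weighted alike gave -0.26 for Nr4a1, thinning to 1000 UMIs gave -1.39 for Nr4a2, and leaving out the 5 highest nuclei gave -0.32 for Nr4a3. With no low-count rule 130 genes passed, against 24. Nr4a1 in L4/5 IT over other excitatory neurons (log2 0.57 in METH and 0.52 in saline) was 0.84 and 0.74 at resolution 2, 0.70 and 0.70 after thinning to 1000, and 0.73 in METH without doublet removal. Nr4a2 in saline L6 IT neurons (2.50) was 1.03, 3.20 and 1.77 at resolution 2, after that thinning and without the 5 highest nuclei. Nr4a3 in METH L5/6 NP neurons (0.81) was 1.09 without those nuclei. The METH over saline ratio of Nr4a3 in L6 IT neurons ran from -1.61 to -0.10.

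The ratio over nuclei with 0 immediate early UMIs, taken at 1 or more, was 1.75 in METH and 1.86 in saline for Nr4a1 and 1.90 and 1.63 for Nr4a3; at 4 or more it was 2.98 and 2.96, and 3.38 and 2.70. Nr4a1 was 2.56 pooled over subclasses in METH, and 2.13 after thinning to 1000 and 2.30 by cluster in saline. Nr4a3 in METH was 2.15 without the 5 highest nuclei and 2.90 without doublet removal.

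Genes higher with a member changed in number. With at least 50 UMIs there were 16 for Nr4a1 and 35 for Nr4a3 in METH, and 2 for Nr4a2 in METH and 2 in saline. With thinning to 1000 there were 3 and 15 for Nr4a1, 1 and 0 for Nr4a2, and 24 and 10 for Nr4a3. With 100 UMIs over all excitatory nuclei, an alternative chosen after seeing the data as was that by cluster, there were 17 for Nr4a1 in METH and 63 and 62 for Nr4a2. Without doublet removal there were 11 for Nr4a2 in saline.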
